A study of Mus musculus with 5 samples.

Results

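Chondroitin sulfate proteoglycans and tenascins are the large secreted and membrane-bound molecules that, with hyaluronan, make up much of the extracellular matrix of the brain. Described here are 9 of their genes, taken by symbol from the 55450 genes of the count matrices: Vcan, Bcan, Ncan and Acan (the lecticans), Cspg4, Cspg5 and Ptprz1 (membrane proteoglycans), and Tnc and Tnr (tenascins). The study took brain cells of C57BL/6J mice, from cortex per the protocol in the labels, into single-cell RNA sequencing (10x Genomics, 3′ chemistry, unique molecular identifiers or UMIs), with 1 library of the sham group and 1 library each at 1, 3, 7 and 14 days after traumatic brain injury. Only the titles of the injured libraries name the injury site, so injury and the piece of cortex sampled cannot be told apart. Neither the number of mice behind a library nor the injury device, age or sex is given in the labels used here, and no drug or mutant allele is named for any group.

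Each group is 1 library, so there is no replicate, no test and no p-value. Levels are UMIs of a gene summed over the cells of a class, as CPM (the usual per-million scaling by all UMIs of that class). All 9 genes reached 10 CPM in at least 1 class of 1 library. Brackets after a level give the exact Poisson 95% interval and brackets after a log2 ratio the exact conditional binomial 95% interval, which cover counting error only and not the spread between mice or libraries. A gene is called measured where its mean over the 2 libraries compared is at least 10 CPM, and higher or lower means at least 2-fold. All comparisons with sham share the same sham library.

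As background, a chondroitin sulfate proteoglycan is a core protein with long sulfated sugar chains. The lecticans bind hyaluronan at one end, with link proteins holding that bond, and tenascins at the other, and this lattice forms the diffuse matrix and the perineuronal nets of cortex. After injury the glial scar is rich in these molecules, which hinder axon growth through receptors such as the phosphatase PTPσ (Ptprs). Astrocytes, oligodendrocyte precursors and neurons are the known sources, and Cspg4 (NG2) is a standard marker of oligodendrocyte precursors and of pericytes.

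The promoters of Tnc, Vcan and Bcan are shown because these genes moved most in astrocyte-like cells, Tnc and Vcan upward and Bcan downward. Each line gives the 250 bases before the RefSeq transcript start on GRCm38.p6, 5′ to 3′ on the gene's own strand, with matches to the searched motifs in capitals.
Tnc, chr4:64047016-64047265, minus strand: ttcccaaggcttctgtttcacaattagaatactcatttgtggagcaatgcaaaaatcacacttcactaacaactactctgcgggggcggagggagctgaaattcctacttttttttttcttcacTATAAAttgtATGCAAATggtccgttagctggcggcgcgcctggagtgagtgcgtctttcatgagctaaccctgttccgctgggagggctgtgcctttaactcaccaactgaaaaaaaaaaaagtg
Vcan, chr13:89742513-89742762, minus strand: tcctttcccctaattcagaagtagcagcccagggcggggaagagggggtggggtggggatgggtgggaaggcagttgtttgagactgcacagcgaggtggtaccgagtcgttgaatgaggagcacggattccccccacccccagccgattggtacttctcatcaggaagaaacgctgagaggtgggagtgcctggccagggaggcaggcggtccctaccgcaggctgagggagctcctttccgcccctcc
Bcan, chr3:88000357-88000606, minus strand: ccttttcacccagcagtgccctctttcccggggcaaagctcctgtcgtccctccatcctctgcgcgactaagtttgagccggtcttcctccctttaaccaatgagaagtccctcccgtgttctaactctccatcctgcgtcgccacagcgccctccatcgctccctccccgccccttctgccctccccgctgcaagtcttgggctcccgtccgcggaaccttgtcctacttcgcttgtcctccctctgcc
The Tnc window holds an octamer (ATGCAAAT) starting 116 bases before the transcript start and a TATA box (TATAAA) starting 126 bases before it, both on the gene's strand. Both are matches of letters only, and from another annotated Tnc start (64046936) they begin 195 and 205 bases before it. Over all 32851 promoter windows of this length, 1.6% held the octamer and 12.4% the TATA box, on either strand. Also searched on both strands were AP-1 (TGANTCA, in 6.75% of windows) and STAT (TTCNNNGAA, in 7.02%), and neither lay in the windows of the 8 members found in the table. The 4 motifs were chosen with the sequences in view. The Tnc window was 44.8% G or C, against 62.4% for Vcan and 62% for Bcan.

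Depth differed widely between libraries. Total UMIs rose from 11279455 in sham to 26705021, 41090570, 110205126 and 129161094 at days 1, 3, 7 and 14, and median UMIs per barcode from 773 to 8558, so shares of cells with a UMI are given after thinning every cell to 500 UMIs. After filters and removal of called doublets 55321 cells remained in 31 clusters, whose names ("-like") rest on marker lists that exclude the 9 genes. Astrocyte-like cells numbered 4245, 4574, 2175, 2664 and 282 from sham to day 14, and carried all 21 astrocyte markers in every library. Oligodendrocyte precursor-like cells numbered 54, 17, 467, 219 and 120 and monocyte or macrophage-like cells 22, 83, 994, 920 and 1924. Classes of fewer than 50 cells in a library were not compared, which leaves out precursor-like cells at day 1 and monocyte or macrophage-like cells in sham. No cluster was named neuron, so neuronal expression of these genes was not read here. Pairs of libraries shared 27 to 59 cell barcodes, at most 0.483% of the smaller library.

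In astrocyte-like cells the 9 genes split. On day 1 Tnc, Vcan and Ncan were higher and Bcan was lower than in sham, while Cspg5 and Ptprz1 stayed within 2-fold. That is 3 of 6 measured members higher, against 12.5% of all 9228 measured genes, and 1 of 6 lower, against 14%. On day 3, 2 of 6 were higher (all genes 9.76%) and 1 was lower (all genes 14.8%). On day 7, 3 of 7 were higher (all genes 4.77%) and 0 lower (all genes 9.7%), and on day 14, 2 of 6 were higher (all genes 15.9%) and 1 lower (all genes 8.94%). The median log2 ratio of the measured members was 0.33, 0.07, 0.89 and -0.12 in that order, beside -0.06, -0.12, -0.13 and 0.13 over all measured genes.

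Tnc, whose secreted hexameric protein is low in adult cortex and known to return around wounds, was at 8.59 CPM [5.71 to 12.4] in sham astrocyte-like cells. It was at 76.4 CPM [70.5 to 82.7] on day 1, 56.7 CPM on day 3, 22.4 CPM on day 7 and 94.2 CPM on day 14. All 4 injured libraries lay above the sham interval, with day 7 the nearest to it. The log2 ratio to sham was 3.15 [2.61 to 3.76] on day 1, 2.72 on day 3, 1.38 [0.83 to 1.99] on day 7 and 3.46 [2.87 to 4.09] on day 14. At the thinned depth 0.4% of sham cells had a Tnc UMI, against 2.73%, 2.57%, 0.638% and 2.84% on days 1, 3, 7 and 14. At these levels few thinned cells would show a UMI even if every cell carried the RNA. The thinned shares therefore do not tell how many cells of the class carried it. The day 3 ratio was under 2-fold where clustering was redone on cells of at least 1000 UMIs (log2 0.05) or at most 10% mitochondrial UMIs (log2 0.81), settings in which the main day 3 cluster left the class. Without thinning the shares were 0.636%, 7.72%, 14%, 9.72% and 20.2%. Microglia-like cells, which should lack the gene, had a thinned share of 0.0222% in sham and 0.151% on day 1, with median depths of 727 and 1788 UMIs per cell against 687 and 1582.5 in astrocyte-like cells.

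Vcan, the lectican of embryonic and white matter matrix, was at 14.1 CPM [10.3 to 18.8] in sham astrocyte-like cells and at 78.3, 69.2, 34.1 and 31.6 CPM on days 1, 3, 7 and 14. Its log2 ratio to sham was 2.47 [2.04 to 2.94], 2.29 [1.86 to 2.76], 1.28 [0.84 to 1.74] and 1.16 [0.58 to 1.75]. Again every injured library stood above sham, and days 1 and 3 stood above days 7 and 14. The day 14 ratio was under 2-fold with called doublets kept (0.98) and with equal weight per cell (0.95), and the day 3 ratio was 1.41 with each cluster set against every other cell for naming. The counts come from the 3′ end of the transcript and do not separate the Vcan splice forms, nor those of Ptprz1, one of which is the secreted proteoglycan phosphacan.

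Ncan, the lectican of developing cortex, passed 2-fold above sham on day 1 only. Its level was 222 CPM in sham, 567 CPM on day 1, 291 CPM on day 3, 218 CPM on day 7 and 187 CPM on day 14. The day 1 log2 ratio was 1.35 [1.24 to 1.47], that of day 3 was 0.39 [0.27 to 0.51], and those of days 7 and 14 were -0.03 and -0.25. Thinned shares of cells with a UMI followed the same order on the first days, at 9.78%, 20.4% and 12.7% in sham and on days 1 and 3.

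Bcan, the main lectican of adult astrocytes, went the other way, from 1540 CPM [1500 to 1580] in sham to 528, 395, 1150 and 681 CPM on days 1, 3, 7 and 14. Its log2 ratio to sham was -1.54 [-1.60 to -1.48], -1.96 [-2.02 to -1.90], -0.42 [-0.46 to -0.37] and -1.17 [-1.26 to -1.08]. Day 3 was the lowest library and day 7 the nearest to sham. In thinned cells the share with a Bcan UMI was 52.1% in sham and 24.6%, 19.3%, 32.7% and 36.2% after injury. On day 14 the fall stayed under 2-fold with all cells cut at 1000 UMIs (log2 -0.93), when each cell counted equally (log2 -0.50) or when cells were assigned one by one by marker score (log2 -0.64).

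**Figure D1:**
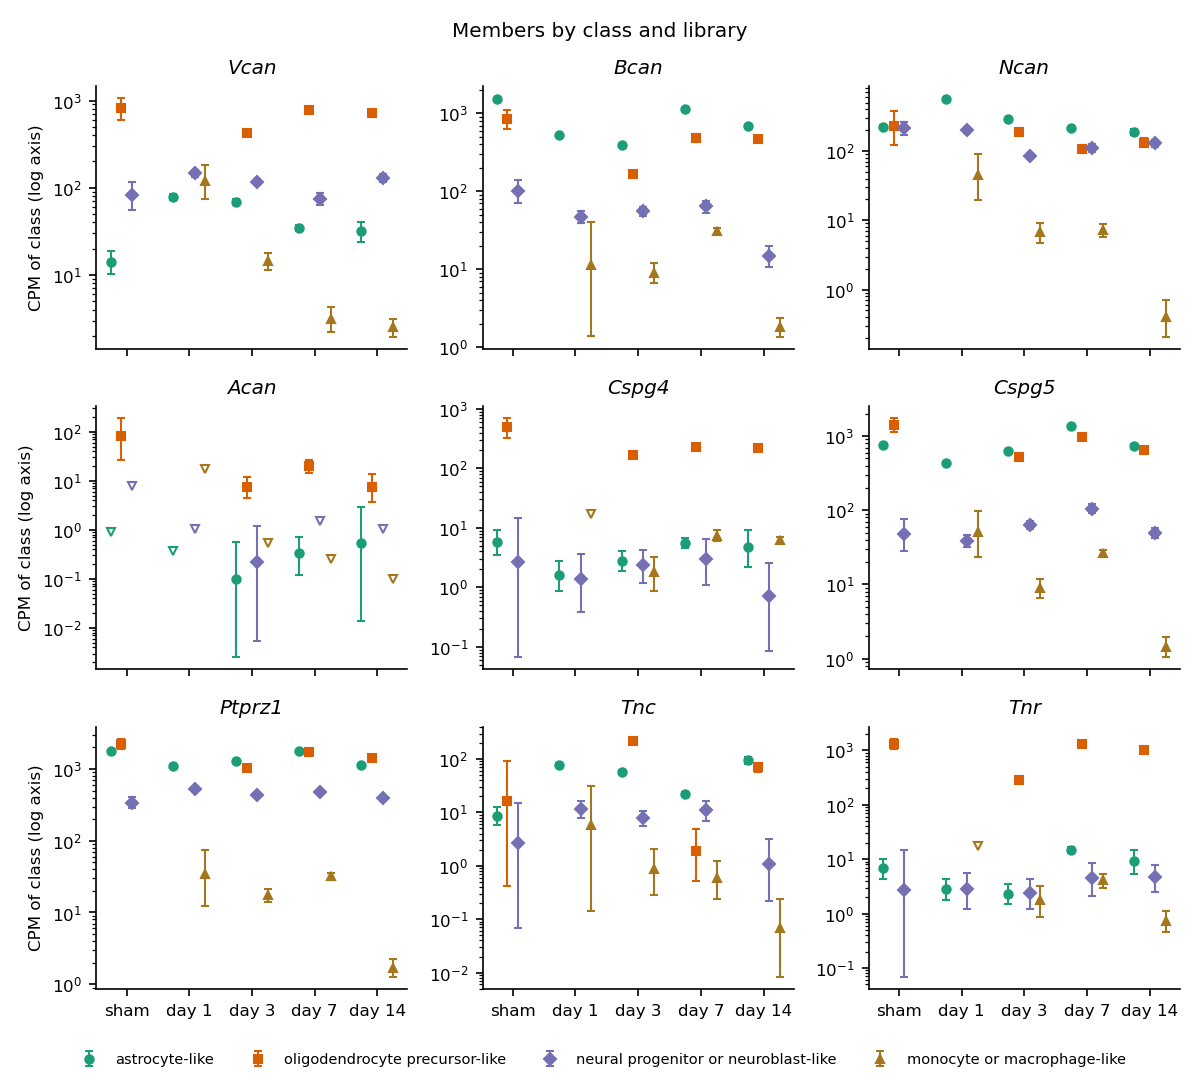
Level of each gene in CPM (log axis) in 4 cell classes by library, with exact Poisson 95% intervals and open triangles at the level of 3 UMIs where none was counted. Astrocyte-like Tnc and Vcan lie above sham in all 4 injured libraries and Bcan below it, while Tnr, Cspg4 and Acan are highest in precursor-like cells among the 4 classes drawn.

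Cspg5, a transmembrane proteoglycan also called neuroglycan C, was at 747, 440, 628, 1380 and 745 CPM from sham to day 14 in astrocyte-like cells. Day 1 was the lowest library and day 7 the highest, with log2 ratios to sham of -0.77 and 0.89. Ptprz1, a receptor phosphatase that binds tenascins and contactin, was at 1810, 1110, 1310, 1780 and 1140 CPM, with log2 ratios of -0.70, -0.46, -0.02 and -0.67. Neither passed 2-fold in any library, although Cspg5 on day 1 reached -1.07 when astrocyte-like cells under 1000 UMIs were left out, and on day 7 reached 1.01 with TMM scaling and with called doublets kept. Tnr, Cspg4 and Acan were low in this class, at 2.32 to 14.8 CPM, 1.61 to 5.83 CPM and 0 to 0.535 CPM. Of these only Tnr was measured in a comparison, with 6.75 CPM in sham and 14.8 CPM on day 7 (log2 1.13 [0.50 to 1.83]), a ratio of 0.71 in cells of at least 1000 UMIs and 0.97 at 10% mitochondrial UMIs.

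**Figure D2:**
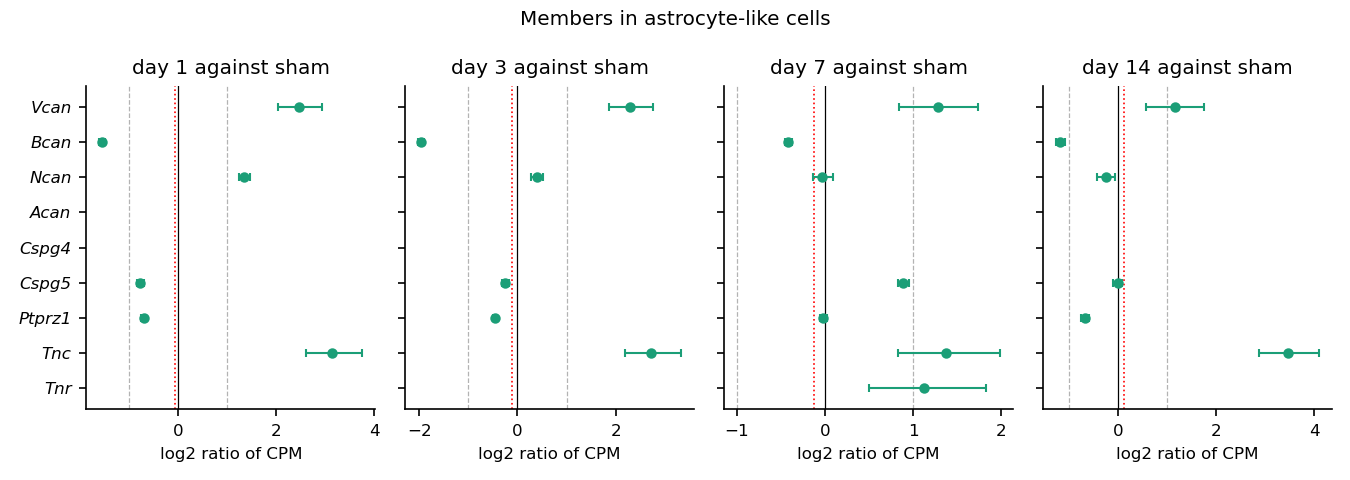
Log2 ratio of CPM to sham in astrocyte-like cells for each measured gene and injured library, with exact 95% intervals for counting error. Dashed lines mark 2-fold and the red dotted line the median of the measured genes with enough UMIs. Tnc and Vcan are at the right in all 4 panels and Bcan at the left.

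The class hides a split between clusters, and the clusters follow the libraries. Sham astrocyte-like cells lay in clusters 4 (2197 cells) and 10 (2037 cells), day 1 cells in clusters 5 (3287 cells) and 4 (1092 cells), day 3 cells in cluster 11 (1948 cells) and day 7 cells in clusters 14 (1461 cells) and 18 (1157 cells). Cluster 18 was shallow, with median UMIs per cell at 0.103 of the library median. Without this cluster, 34 of 34 astrocyte-like and precursor-like ratios past 2-fold remained so. Only cluster 4 holds many cells of both sham and day 1. Within it Tnc was at 6.38 CPM in sham and 8.49 CPM on day 1 (log2 0.41 [-0.96 to 1.80]), a difference not detectable at this depth, and Vcan at 11.5 and 23.2 CPM (log2 1.01 [0.12 to 1.94]). Ncan was at 184 and 255 CPM there (log2 0.47) and Bcan at 1590 and 1180 CPM (log2 -0.43 [-0.53 to -0.34]), so all 4 differed less within the shared cluster than over the class. Cspg5 changed sign, from 299 to 537 CPM in cluster 4 (log2 0.84 [0.67 to 1.01]).

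Day 1 cells of cluster 5 had Tnc at 78.3 CPM, Vcan at 86.8 CPM, Ncan at 643 CPM and Bcan at 413 CPM. In the 111 day 1 cells that joined the day 3 cells in cluster 11, Tnc was at 329 CPM [269 to 398], Vcan at 144 CPM and Bcan at 94 CPM. These were the highest Tnc and lowest Bcan levels of any astrocyte-like cluster in a library. The clusters were built without the 9 genes, yet with 1 library per day a cluster held mostly by 1 library and a cell state of that day cannot be told apart.

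**Figure D3:**
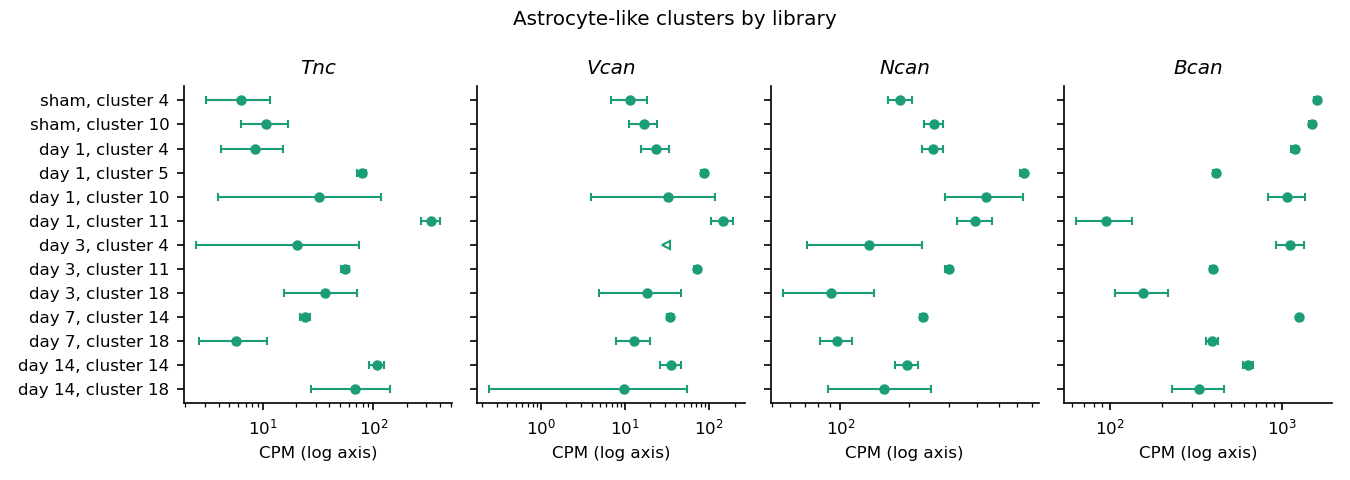
CPM (log axis) of Tnc, Vcan, Ncan and Bcan in each astrocyte-like cluster and library of at least 50 cells, with exact Poisson 95% intervals and an open triangle at the level of 3 UMIs for a count of 0. Day 1 cells of cluster 4 lie near the sham clusters, and day 1 cells of clusters 5 and 11 are higher in Tnc and Vcan and lower in Bcan.

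Other measures also differed between the libraries. The summed level of the 23 mural cell or fibroblast markers in astrocyte-like cells was 768, 896, 2740, 711 and 1680 CPM from sham to day 14, with Dpt at 0 in all libraries and Slc6a13 at 0 on days 1 and 3. That of the 16 neural progenitor or neuroblast markers was 512, 1070, 1470, 928 and 992 CPM, with 14 to 16 of them detected, and that of the 29 monocyte or macrophage markers 29.4, 123, 377, 114 and 877 CPM. Oligodendrocyte markers summed to 3430, 1700, 1420, 2490 and 4100 CPM and the 14 precursor markers to 297, 210, 259, 261 and 348 CPM. Median mitochondrial share was 1.38% in sham and 9.31% on day 7. Their part in the member differences was not tested. With astrocyte-like cells of at least 1000 UMIs, the Tnc ratio was 2.40 on day 1, 1.91 on day 3, 0.60 on day 7 and 2.65 on day 14, and the Vcan ratio was 2.08, 1.89, 0.87 and 0.78, so both passed below 2-fold on day 7 and Vcan on day 14.

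Other genes of the pathway were read from lists made with earlier results of these data known. Of 3 measured genes for link proteins, hyaluronan synthases and the hyaluronan receptor, 2 were higher and 1 lower on day 1 in astrocyte-like cells. Over all genes of that class 12.5% were higher and 14% lower on that day. The receptor Cd44 went from 7.97 CPM in sham to 702 CPM on day 1 (log2 6.46 [5.91 to 7.08]), 232 CPM on day 3 and 204 CPM on day 14. Hapln1, the link protein that fixes lecticans to hyaluronan, was lower, from 116 CPM to 21.3 CPM on day 1 (log2 -2.44) and 41.7 CPM on day 3 (log2 -1.47). Adamts1, a protease that cuts lecticans, rose from 32.8 to 569 CPM on day 1 (log2 4.12 [3.84 to 4.41]) and was at 104 CPM on day 3. Of 9 measured chain synthesis genes 1 was higher on day 1 (all genes 12.5%), the chondroitin synthase Chsy1 (29.7 to 78.2 CPM, log2 1.39), and 2 were lower (all genes 14%), Chpf2 (113 to 48.1 CPM) and Csgalnact1 (74.8 to 33.3 CPM). Chpf2 stayed lower on days 3, 7 and 14, at 31.6, 22.6 and 26.2 CPM.

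Of the 2 measured sulfation genes 1 was lower and 1 higher on day 1 (all genes 14% and 12.5%), the latter the chondroitin sulfotransferase Chst11, from 39.6 to 145 CPM (log2 1.88 [1.62 to 2.15]). Of 7 measured receptors and partners 2 were higher on day 1 (all genes 12.5%), the integrin chains Itgav (128 to 345 CPM) and Itgb1 (90.2 to 208 CPM), and 1 was lower (all genes 14%), the contactin Cntn1 (75.7 to 28.6 CPM). Of 9 measured cleavage and breakdown genes 3 were higher and 2 lower on day 1 (all genes 12.5% and 14%). On day 14 the small proteoglycan gene Bgn went from 1.84 to 70.1 CPM (log2 5.25 [4.09 to 6.72]), in 282 cells.

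Oligodendrocyte precursor-like cells carried Tnr at 287 to 1330 CPM and Vcan at 422 to 812 CPM, while no other class of at least 50 cells passed 69.6 CPM for Tnr or 146 CPM for Vcan. Tnr, the tenascin of perineuronal nets and of the oligodendrocyte lineage, was at 1330 CPM [1060 to 1650] in sham, 287 CPM [266 to 309] on day 3, 1320 CPM on day 7 and 1030 CPM on day 14. Day 3 stood apart, below the intervals of the other libraries. Vcan was at 812, 422, 785 and 724 CPM in the same order, Bcan at 844, 167, 485 and 467 CPM, and Cspg4 at 487, 165, 229 and 223 CPM. Cspg5 was at 1410, 529, 980 and 639 CPM and Ptprz1 at 2260, 1020, 1740 and 1410 CPM. For these 6 genes day 3 was the lowest of the 4 libraries compared. Ncan did not follow, with 227 CPM [124 to 381], 186, 107 and 132 CPM.

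The sham class holds 54 cells and 61611 UMIs, so that 1 UMI makes 16.2 CPM. Against sham 6 of 9 measured members were lower on day 3 (all genes 35.1%), 3 of 8 on day 7 (all genes 26.4%) and 3 of 9 on day 14 (all genes 26.1%). Higher members numbered 1 of 9, 0 of 8 and 1 of 9 (all genes 9.11%, 7.16% and 8.01%), in both cases Tnc, set against 1 sham UMI. The shares were therefore also taken over better counted genes. Among genes whose mean level gives at least 20 UMIs in the smaller sum, the shares lower were 16.6% of 452 genes on day 3, 9.53% of 430 on day 7 and 6.99% of 458 on day 14, the shares higher were 29.6%, 6.74% and 10%, and the median log2 ratios were 0.36, 0.00 and 0.22. With this median taken off, 7 of 9, 3 of 8 and 5 of 9 members were lower. No all-gene share with the median taken off is given here, so the counts made that way are not read as a result about the members. The members counted include Acan, with 5 sham UMIs, so these counts are not to be set against the shares of the better counted genes. With cells assigned one by one by marker score, Cspg4 (-0.78, -0.49 and -0.35) was under 2-fold on all 3 days and Cspg5 (-0.86) and Ptprz1 (-0.66) on day 3.

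Day 3 was therefore also used as the reference, a choice made after the number of sham cells was seen. Against it 3 of 9 members were higher on day 7 (all genes 15%), namely Tnr (log2 2.20 [2.08 to 2.32]), Bcan (1.54 [1.37 to 1.71]) and Acan (1.44 [0.61 to 2.33]), and 1 was lower, Tnc (all genes 8.32%). On day 14, 2 of 8 were higher (all genes 15.4%), Tnr (1.84 [1.71 to 1.97]) and Bcan (1.48 [1.30 to 1.66]), and 1 was lower, again Tnc (all genes 7.5%). The all-gene medians were 0.15 and 0.18. With equal weight per cell, Bcan was under 2-fold on both days (0.77 and 0.72) and Tnr was at 1.32 and 1.19. Vcan, at 0.90 and 0.78, and Cspg4, at 0.47 and 0.43, stayed under 2-fold. Ncan went the other way from Vcan and Bcan, from 186 CPM on day 3 to 107 and 132 CPM (log2 -0.80 [-1.03 to -0.56] and -0.50 [-0.76 to -0.24]).

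**Figure D4:**
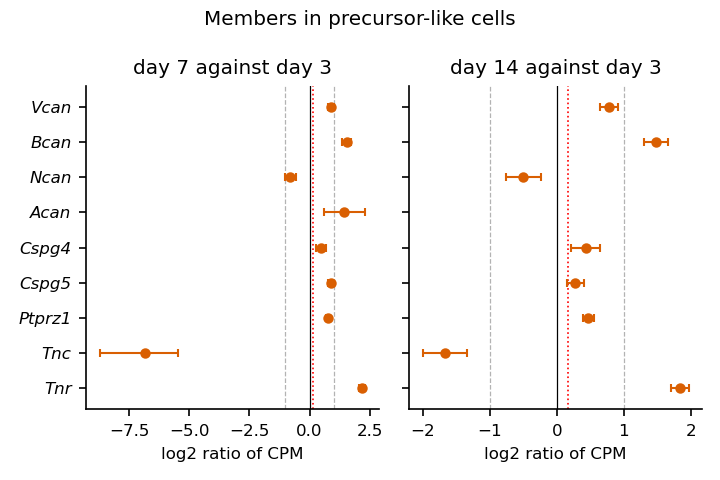
Log2 ratio of CPM to day 3 in precursor-like cells on days 7 and 14, with exact 95% intervals for counting error, dashed lines at 2-fold and a red dotted line at the median of genes with enough UMIs. Tnr and Bcan lie to the right of 2-fold in both panels and Tnc far to the left on day 7.

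The precursor class itself differed by library. Its 14 own markers summed to 12000, 3530, 6320 and 6030 CPM in sham and on days 3, 7 and 14, lowest on day 3 as Tnr was, and the 18 oligodendrocyte markers to 12700, 1750, 10200 and 15200 CPM. Median mitochondrial share was 0.699%, 1.94%, 6.16% and 1.8%. Median UMIs per cell were 926.5, 3415, 8478 and 9587.5. The part of these differences in the member levels was not tested.

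Other pathway genes in this class were read against the same shallow sham sum, where 35.1% of all genes were lower and 9.11% higher on day 3. Counts against this sum are not read as results about the lists. On day 3, 0 of 9 measured chain synthesis genes were higher and 4 lower, 0 of 7 sulfation genes were higher and 6 lower, and 0 of 8 receptors and partners were higher and 3 lower. The contactin gene Cntn1, whose protein binds Ptprz1, had enough sham UMIs (54) to be read and was at 876 CPM in sham and 250 CPM on day 3 (log2 -1.81 [-2.21 to -1.38]). The uronyl sulfotransferase gene Ust, at 130 and 7.82 CPM, rests on 8 sham UMIs. Cd44 had no UMI in sham and was at 138 CPM on day 3, at least 2.83-fold higher when the sham class is given 3 UMIs.

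Acan, the lectican of perineuronal nets, was the scarcest of the 9. In sham all 5 of its UMIs were in precursor-like cells (81.2 CPM [26.4 to 189]), and none was counted on day 1. Precursor-like cells had 18 UMIs on day 3 (7.40 CPM), 42 on day 7 (20.1 CPM) and 10 on day 14 (7.62 CPM). On day 3 a further 38 UMIs lay in 8 of the 95 mural cell or fibroblast-like cells (29.8 CPM), 14 of them in 1 cell. Beside the day 7 ratio to day 3 given above, from 42 and 18 UMIs, no order of the libraries is read for this gene, and that ratio fell to 0.91 with called doublets kept.

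In precursor-like cells Tnc was highest on day 3. It had 1 UMI in sham (16.2 CPM [0.411 to 90.4]), 540 UMIs on day 3 (222 CPM [204 to 242]), 4 on day 7 (1.91 CPM [0.522 to 4.90]) and 92 on day 14 (70.1 CPM [56.5 to 86]). On day 3, 105 of 467 cells had a UMI, with up to 43 in a cell, and on day 7, 3 of 219 had one. The day 14 value rests on 2 of 120 cells, with 48 and 27 UMIs, and the log2 ratio of day 14 to day 3 was -1.66 from sums but -0.23 when each cell counted equally. Between days 3 and 7 the log2 ratio was -6.86 [-8.74 to -5.49], and -6.20 when each cell counted equally.

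The Tnc-bearing cells of day 3 differed from the rest of the class in the other members too. In the 50 cells with at least 3 Tnc UMIs, a limit set after the values were seen, Tnr was at 109 CPM [85.5 to 137], against 356 CPM [329 to 385] in the other 417 cells. Vcan was at 194 and 510 CPM, Cspg4 at 57.4 and 207 CPM, Bcan at 33.9 and 219 CPM and Cspg5 at 144 and 678 CPM, all lower with Tnc. Ncan was close in both sets, at 155 CPM [126 to 187] and 199 CPM [178 to 221].

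Those 50 cells held 473 of the 540 Tnc UMIs of the class on day 3. The 14 precursor markers summed to 1688 CPM in them, against 4239 CPM in the other cells. Pdgfra was at 271 CPM against 869 CPM and Sox10 at 160 against 364 CPM, while Olig2 was at 206 CPM against 153 CPM. Cd44 was at 263 CPM against 89.1 CPM, the summed astrocyte markers at 1179 against 2366 CPM and the summed neural progenitor or neuroblast markers at 1872 against 1465 CPM. Mural cell or fibroblast markers were alike in both sets, at 245.8 and 254.6 CPM. The 50 cells were deeper, with a mean of 13587 UMIs against 4200.9, and a cell of more UMIs reaches 3 Tnc UMIs more readily. How far depth sets the split was not tested.

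Mural cell or fibroblast-like cells, read on days 3 and 7 only (95 and 131 cells), were the third place of Tnc. On day 3 it was at 779 CPM [732 to 829], in 52 of 95 cells, with 224 of the 994 UMIs in 1 cell. On day 7 it was at 200 CPM, but 95 of 96 UMIs were in 1 cell. Cspg4 showed the reverse, with 35.3 CPM [25.7 to 47.2] on day 3 and 638 CPM [569 to 714] on day 7, in 89 of 131 cells. The cluster pools pericyte and fibroblast markers, so a change in the mix of the 2 cell types and a change within either cannot be told apart. Vcan was at 115 and 39.6 CPM in the same cells. Between the same days the summed mural cell or fibroblast markers were at 15600 and 23100 CPM, oligodendrocyte markers at 3540 and 12300 CPM, microglia markers at 3210 and 8620 CPM, erythroid markers at 32.1 and 1010 CPM, and the median mitochondrial share at 1.08% and 6.72%. Their part in these differences was not tested.

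Neural progenitor or neuroblast-like cells also held Vcan, Ncan and Ptprz1. Vcan was at 82.5, 146, 117, 75.1 and 129 CPM from sham to day 14, Ncan at 213, 200, 85.2, 110 and 129 CPM and Ptprz1 at 341, 524, 435, 474 and 390 CPM. Day 3 was the lowest for Ncan. For Vcan the intervals of sham [56.1 to 117] and day 7 [63.6 to 88.1] overlapped. Those of day 1 [132 to 161] and day 14 [116 to 143] also overlapped, so no highest or lowest library is read. Within cluster 9 of this class Vcan was at 186, 196, 148, 160 and 251 CPM from sham to day 14. The part of the clusters in the class levels was not tested.

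Where the molecules of each gene lay follows from levels and cell numbers together. Astrocyte-like cells held 88.9%, 89.2%, 80.9%, 81.7% and 50.6% of Bcan UMIs from sham to day 14. For Vcan they held 34.1% in sham, 55% on day 1, 27.1% on day 3 and 23.2% on day 7, while precursor-like cells held 37% in sham, 40.5% on day 3, 61.6% on day 7 and 61.3% on day 14. Tnc lay mostly in astrocyte-like cells in sham (84.8%) and on days 1 (86.2%) and 7 (70.5%). On day 3 it was spread, with 45% in mural cell or fibroblast-like, 25.5% in astrocyte-like and 24.4% in precursor-like cells, and on day 14 with 25.4%, 45.1% and 23.6% in that order. Precursor-like cells held 63.6% of Tnr in sham, 90.3% on day 3, 77.4% on day 7 and 84.4% on day 14. These shares depend on how many cells of each class were captured.

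**Figure D5:**
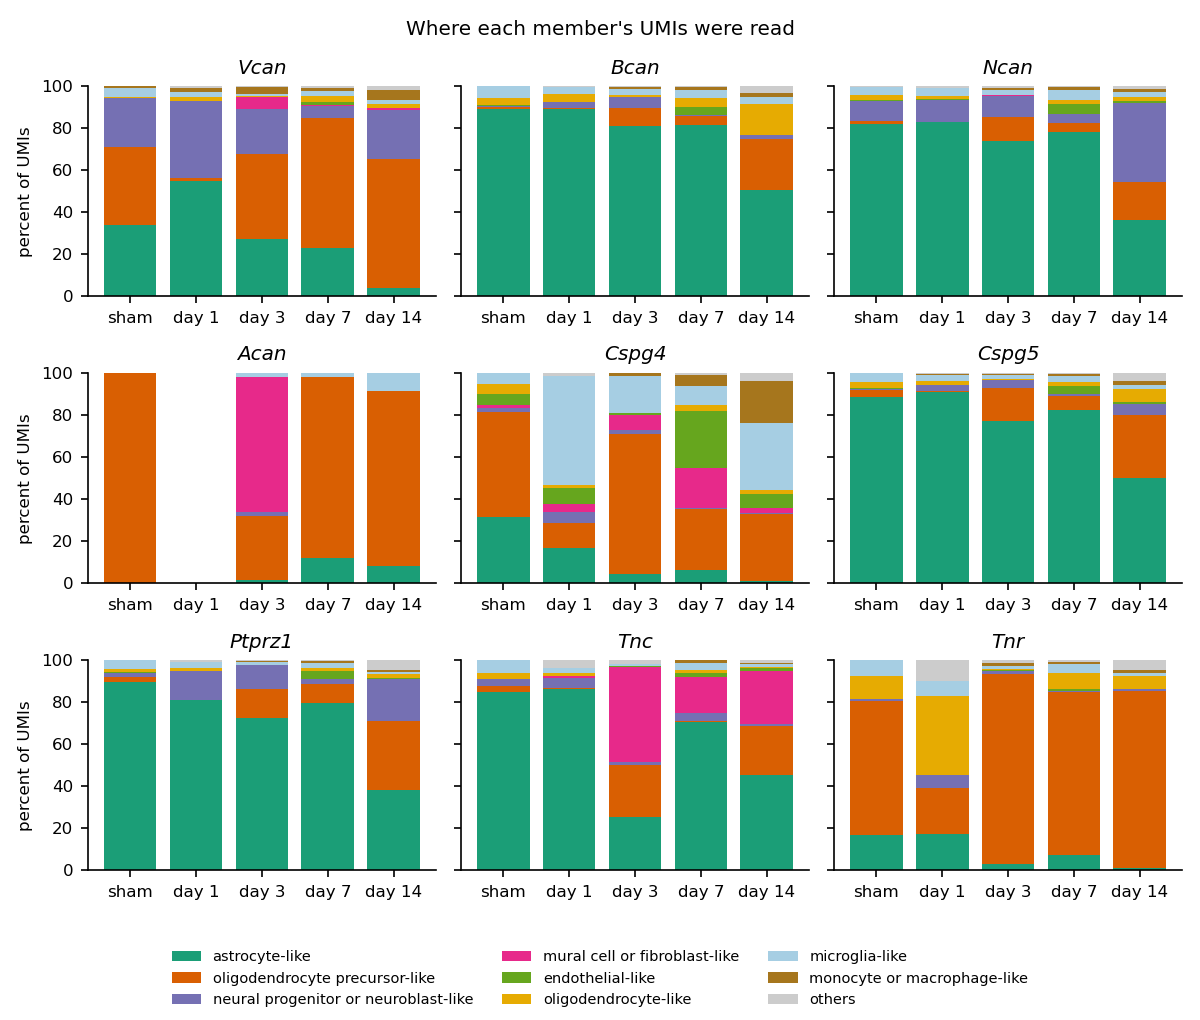
Percent of each gene's UMIs that lay in each cell class, by library, with the classes stacked to 100. Bcan, Cspg5 and Ptprz1 are mostly astrocyte-like from sham to day 7 and less so on day 14 (50.6%, 50.1% and 38.1%), Tnr is mostly precursor-like outside day 1, and Tnc spreads over 3 classes on day 3. Acan has no bar on day 1 because no UMI was counted.

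Vcan, a gene known in blood monocytes, was counted in monocyte or macrophage-like cells, highest on the early days. It was at 120 CPM [74 to 183] on day 1, from 21 UMIs in 11 of 83 cells, then 14.4 CPM [11.4 to 17.9] on day 3, 3.14 CPM [2.21 to 4.33] on day 7 and 2.5 CPM [1.96 to 3.13] on day 14. Against day 3 the log2 ratio was -2.20 [-2.80 to -1.62] on day 7 and -2.53 [-3.00 to -2.06] on day 14. In both comparisons the mean was under 10 CPM, so Vcan was not measured there by the rule used. The class also changed in make-up, as cluster 20 held 744 of its cells on day 3, 11 on day 7 and 38 on day 14. Within cluster 15 Vcan was at 3.06 CPM [0.631 to 8.95], 3.31 and 1.8 CPM on days 3, 7 and 14. The part of the clusters in the ratios was not tested.

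Free RNA from broken cells gives every class a low level of its neighbours' genes. On day 3 Vcan in this class was 3.42% of its precursor-like level, above all 14 precursor markers read the same way (0% to 1.56%). On that day precursor-like cells held 40.5% of Vcan UMIs, astrocyte-like cells 27.1% and neural progenitor or neuroblast-like cells 21.2%. The markers are therefore not a like measure of free Vcan RNA, and the day 3 level is not separated from it. On days 7 and 14 Vcan was at 0.401% and 0.345% of its precursor-like level. Those values lay inside the ranges of the same markers (0.231% to 2.58% and 0.0329% to 0.624%). By the same limit they are not separated from free RNA. On day 14 the 74 Vcan UMIs of this class lay in 33 of 1924 cells, with up to 9 in a cell. On day 1 Vcan was at 153% of its astrocyte-like level, against 3.59% to 7.67% for 9 astrocyte genes read the same way. The summed level of the 29 monocyte or macrophage markers was 9770, 7870, 3920 and 4950 CPM from day 1 to day 14, that of the 18 microglia markers in the same cells 12500, 12000, 27500 and 22800 CPM, and their part in the Vcan difference was not tested. Bcan, Ptprz1 and Tnc in these cells were at 0.0716% to 7.45% of their astrocyte-like levels, on each day at or below the highest of the 9 astrocyte genes except for Bcan on day 3 (2.3% against at most 1.74%). Apart from that value Bcan, Ptprz1 and Tnc are read as background. Ncan was above the highest of the 9 on days 1, 3 and 7 (8.03%, 2.32% and 3.27%, against 7.67%, 1.74% and 3.1%). Cspg5 was above it on day 1 (11.6%). The day 1 values of Ncan and Cspg5 rest on 8 and 9 UMIs, and the source of these values was not tested.

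Genes of most similar pattern were found by Pearson's r of log2(CPM + 10) over 49 class and library pairs, among 10316 genes. The pairs share libraries and free RNA, so r is a description. Nearest to Tnr was Lhfpl3 (r = 0.971), a precursor marker, nearest to Vcan the precursor marker Cacng4 (0.882), and nearest to Bcan was Luzp2 (0.959). Nearest to Tnc was the collagen gene Col12a1 (0.928), to Ncan Ctnnd2 (0.938) and to Cspg4 Ajap1 (0.903). Among the members themselves r was highest for Ncan with Ptprz1 (0.93). Next were Bcan with Cspg5 and Cspg5 with Ptprz1 (0.92 each), and lowest was Ncan with Cspg4 (0.21).

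All 9 genes were matched by identifier to GRCm38. Vcan lies on chromosome 13 (89655312 to 89742509, minus strand), Bcan on chromosome 3 (87987531 to 88000230, minus) and Tnc on chromosome 4 (63959785 to 64047015, minus). Tnr lies on chromosome 1 (159523769 to 159931729, plus) and Cspg4 on chromosome 9 (56865033 to 56899870, plus). Other annotated genes lie within or across the spans of Tnr, Vcan, Tnc, Cspg5 and Ncan, and the sources used here do not say how reads over shared bases were counted.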

How the data were processed

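The deposited files hold UMI counts per gene and cell barcode for each library, written by Cell Ranger 4.0.0 per the file headers; STAR 2.5.37, Seurat 3.2.0 and GRCm38/mm10 stand in the submitters' processing notes, with no role given. The labels describe papain-dissociated cortex, cleared on a density gradient. Barcodes with at least 500 UMIs, 200 genes and at most 20% mitochondrial UMIs were kept (58411 barcodes). Scrublet, run on all barcodes of a library, called 3.16% to 8.52% of them doublets, which were removed. Cells were clustered with scanpy 1.11.5 (2000 variable genes without the members, 30 principal components, Leiden resolution 1). A cluster was named where at least 3 markers of a list were in 10% of its cells and 2-fold above clusters of other classes. The monocyte and macrophage lists and the mural and fibroblast lists were joined, and the naming rule was settled, after cluster markers were seen.

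All 9 members were named; per pathway list and day, at most the 2 highest and 2 lowest genes of at least 50 CPM and 2-fold were named, and some genes that these rules select are not reported here. The members and lists were chosen with earlier results of these data known. Intervals and ratios were tested on simulated counts. That test showed that medians and TMM factors go astray where the smaller sum is shallow, so these use genes of at least 20 UMIs there. Levels are not scaled for length, so levels of different genes were not compared. Promoters came from RefSeq (GRCm38.p6), where 8 members matched. Alternatives covered cell filters, doublets, scaling, low-value filters, clustering, naming, single-cell assignment and equal weight per cell; the day 3 reference for precursor-like cells, the cluster shared by sham and day 1 and 2 limits on astrocyte-like cells were added after seeing the data.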

Additional observations from a re-analysis of the deposited data

How the results depend on the processing

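No paired analysis was possible because each group is 1 library, and no library could be left out. Of the astrocyte-like and precursor-like ratios past 2-fold, 34 in most settings, all kept their direction in each setting that gave them. Past 2-fold remained 32 of 34 with TMM, 32 of 34 at 10% mitochondrial UMIs, 25 of 33 with single cells assigned by marker score, 24 of 34 with equal weight per cell and 15 of 19 at 1000 UMIs per cell, where sham precursor-like cells were too few. Shallow sums of low genes limit Acan and all sham precursor-like values.

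Counts that moved by over 1.5 times were as follows. All-gene shares under these settings are not given, here or in the next paragraph. The counts show how far the calls depend on the setting and are not read as results about the members. In astrocyte-like cells at 1000 UMIs per cell, lower members were 2 on day 1 and 0 on day 14, and higher members 1 on day 3 and 0 on day 7. With astrocyte-like cells alone cut at 1000 UMIs, an alternative added after seeing the data, they were 2 lower on day 1, 0 higher on day 7 and 1 higher on day 14. At 10% mitochondrial UMIs 1 was higher on day 3, and with doublets kept 1 was higher on day 14. With a floor of 50 CPM 0 were higher on day 7 and 1 on day 14. With no filter 3, 4 and 1 were lower on days 1, 3 and 7. With naming against all other cells 3 were lower on day 3. With marker scores 0 were lower on day 14, and with equal weight per cell 1 was higher and 0 lower on day 14.

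In precursor-like cells against sham, 1 was lower on day 7 with TMM or with equal weight per cell, and 3, 1 and 1 were lower on days 3, 7 and 14 with marker scores. Against day 3, 2 were lower on day 7 at 10% mitochondrial UMIs or with doublets kept, and with equal weight per cell 1 was higher and 0 lower on day 14. Vcan in monocyte or macrophage-like cells against day 3 was -3.01 on day 7 at 1000 UMIs, -2.88 on day 7 with doublets kept and -1.74 on day 14 with marker scores. Cspg5 in neural progenitor or neuroblast-like cells, day 7 against sham, reversed from 1.13 to -0.11 with doublets kept. The cause was not tested.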

Other observations

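Relative to precursor-like cells, Cspg4 was above the 14 precursor markers in microglia-like cells on days 3 and 14. The same held in monocyte or macrophage-like cells on days 7 and 14. Precursor-like cells held 66.3%, 29.4% and 32.2% of Cspg4 UMIs on days 3, 7 and 14. On day 7 endothelial-like cells held 27.1% and mural cell or fibroblast-like cells 18.8%. The precursor markers are therefore not a like measure of free Cspg4 RNA. In microglia-like cells it was at 0.812, 4.99, 8.83, 3.68 and 6.34 CPM from sham to day 14, and in monocyte or macrophage-like cells at 1.78, 7.39 and 6.17 CPM on days 3, 7 and 14. On day 14 these levels were 2.85% and 2.77% of the precursor-like level, above all 14 precursor markers read the same way (at most 0.658% and 0.624%), while Tnr was at 0.0539% and 0.0722%. On day 3 the microglia-like value was 5.35%, against at most 2.23% for the markers, and the monocyte or macrophage-like value, 1.08%, was inside the range of the markers. On day 7 the microglia-like value, 1.61%, was also inside it, and the monocyte or macrophage-like value, 3.23%, was above it (at most 2.58%). This was noticed after the values were seen and its source was not tested.

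Endothelial-like cells had Cspg4 at 26, 37.1, 20.9, 92.8 and 48.3 CPM from sham to day 14, from 3, 6, 6, 441 and 64 UMIs. The intervals in sham and on days 1 and 3 were 5.35 to 75.9, 13.6 to 80.7 and 7.66 to 45.4 CPM, so no order of these libraries is read. Ependymal-like cells, read on day 1, had Tnc at 97.5 CPM [63.7 to 143], from 26 UMIs, with a UMI in 5.06% of 79 cells. That was 128% of the astrocyte-like level, inside the range of the 9 astrocyte genes in this class (3.55% to 162%), so it is not separated from background.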
